A study of Apostichopus japonicus with 3 samples.

Results

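Ribosomal protein transcripts of the sea cucumber Apostichopus japonicus were followed across 3 short-read libraries of messenger RNA. An isotig, the unit of every table, is a transcript assembled from reads, and the members are the isotigs whose first KEGG orthology entry is named as a large or small subunit ribosomal protein. This name rule found 89 of 21290 isotigs. Of these, 50 carried large subunit names that end in e (the cytosolic type), 33 carried small subunit names that end in e, 5 carried the stalk names LP0, LP1 and LP2, and 1 carried the name L13 without a final e, the form KEGG uses for the bacterial and mitochondrial type. The stalk names have no final e although these proteins belong to the cytosolic ribosome, so they are described apart, and no small subunit name lacked the final e.

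The control animals were kept under natural light of about 100 lux, the dark animals spent 2 h in a tank darkened with shade cloth, and the light animals spent 2 h under strong light of about 2000 lux. Each group is 1 library, of 1570290 (control), 1698268 (dark) or 1644816 (light) uniquely assigned reads, and the sources used here do not say how many animals it came from. The labels disagree on the tissue: the tissue label and the extraction protocol name the body wall, and the source label names the intestine. Among names listed as tissue markers, collagen types had 33895 to 39506 reads per library over 9 isotigs and trypsin had 3366 to 3812 over 7. Other names on the body wall side ranged from myosin heavy chain, with 2368 to 4126 reads, to troponin, with 23 to 55, and tropomyosin, with 2 to 16. On the gut side pancreatic lipase had 331 to 656 reads, carboxypeptidase A 1 to 3 and meprin 1 to 2. Which tissue label holds was not tested. No isotig was named calponin or alpha actin on the body wall side, or chymotrypsin, carboxypeptidase B, sucrase or intestinal alkaline phosphatase on the gut side. Since no group is replicated, nothing was tested between conditions, and a ratio compares a pair of libraries. A counting interval below is the exact conditional binomial (Clopper-Pearson) 95% interval of a ratio of reads per library total. It covers counting error only, not variation between animals or libraries. Reads without molecular identifiers are not independent molecules, so the interval can be too narrow even for counting error.

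The cytosolic ribosome joins a large subunit, which forms peptide bonds, to a small subunit, which holds the messenger RNA and reads its codons. Each subunit needs its proteins in fixed proportion, and in animals these proteins are encoded by messenger RNAs that are among the most abundant of most cells, and in vertebrates these messages share a pyrimidine-rich start through which their translation is regulated together. Mitochondria have ribosomes of their own, whose proteins are encoded in the nucleus.

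The 89 isotigs carried 76 different names. Of 79 names that KEGG gives to cytosolic ribosomal proteins of animals, 75 were found, and L38e, L41e, S26e and SAe were carried by no isotig and were not analysed here. The best KEGG hit was to the sea urchin Strongylocentrotus purpuratus, another echinoderm, for 43 isotigs, to zebrafish for 8 and to the lancelet Branchiostoma floridae for 6. A weak hit, with an E-value above 1e-10, was seen for 1 member, the L22e isotig28559. The isotigs were 220 to 1814 bases long with a median of 578, against 777 for all tested isotigs. Reads were listed for 87 members in control and 88 each in dark and light, and 85 had reads in all 3 libraries.

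Levels are given in RPKM (reads divided by the isotig's length and by all uniquely assigned reads of the library). Among cytosolic and stalk members, the level in a library went along with how much of the isotig was covered by uniquely assigned reads. Coverage fell into separate ranges: 70 members were covered over at least 76.4% of their length in every library, and 19 were covered over at most 61.3% in any library. The line of 70% between these ranges was drawn after the values were seen. Of the 19 partly covered members, 18 shared their name with another isotig, and the last was S27Ae (isotig01107). The 69 cytosolic and stalk members on the well covered side lay within a narrow band, from 741 (S9e) to 3115 RPKM (L13e) in control, from 1200 (L22e isotig28559) to 5506 (L13e) in the dark and from 697 (L22e isotig28559) to 3160 (L13e) under strong light. The highest was 4.20, 4.59 and 4.53 times the lowest in the 3 libraries. L13 (isotig26163) was also covered over at least 84.0% in every library, but had only 33.9 RPKM in control, 32.6 in the dark and 32.4 under strong light. The partly covered members ranged from 0 to 604 RPKM in control, from 0 to 984 in the dark and from 0 to 694 under strong light. In each library S27Ae was the highest of them. RPKM divides by the whole length of an isotig, also where many of its bases have no uniquely assigned reads, as in L3e, L8e, L10Ae, L23Ae, L44e, S5e and S27e. The part of read assignment in these low levels was not tested.

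**Figure D1:**
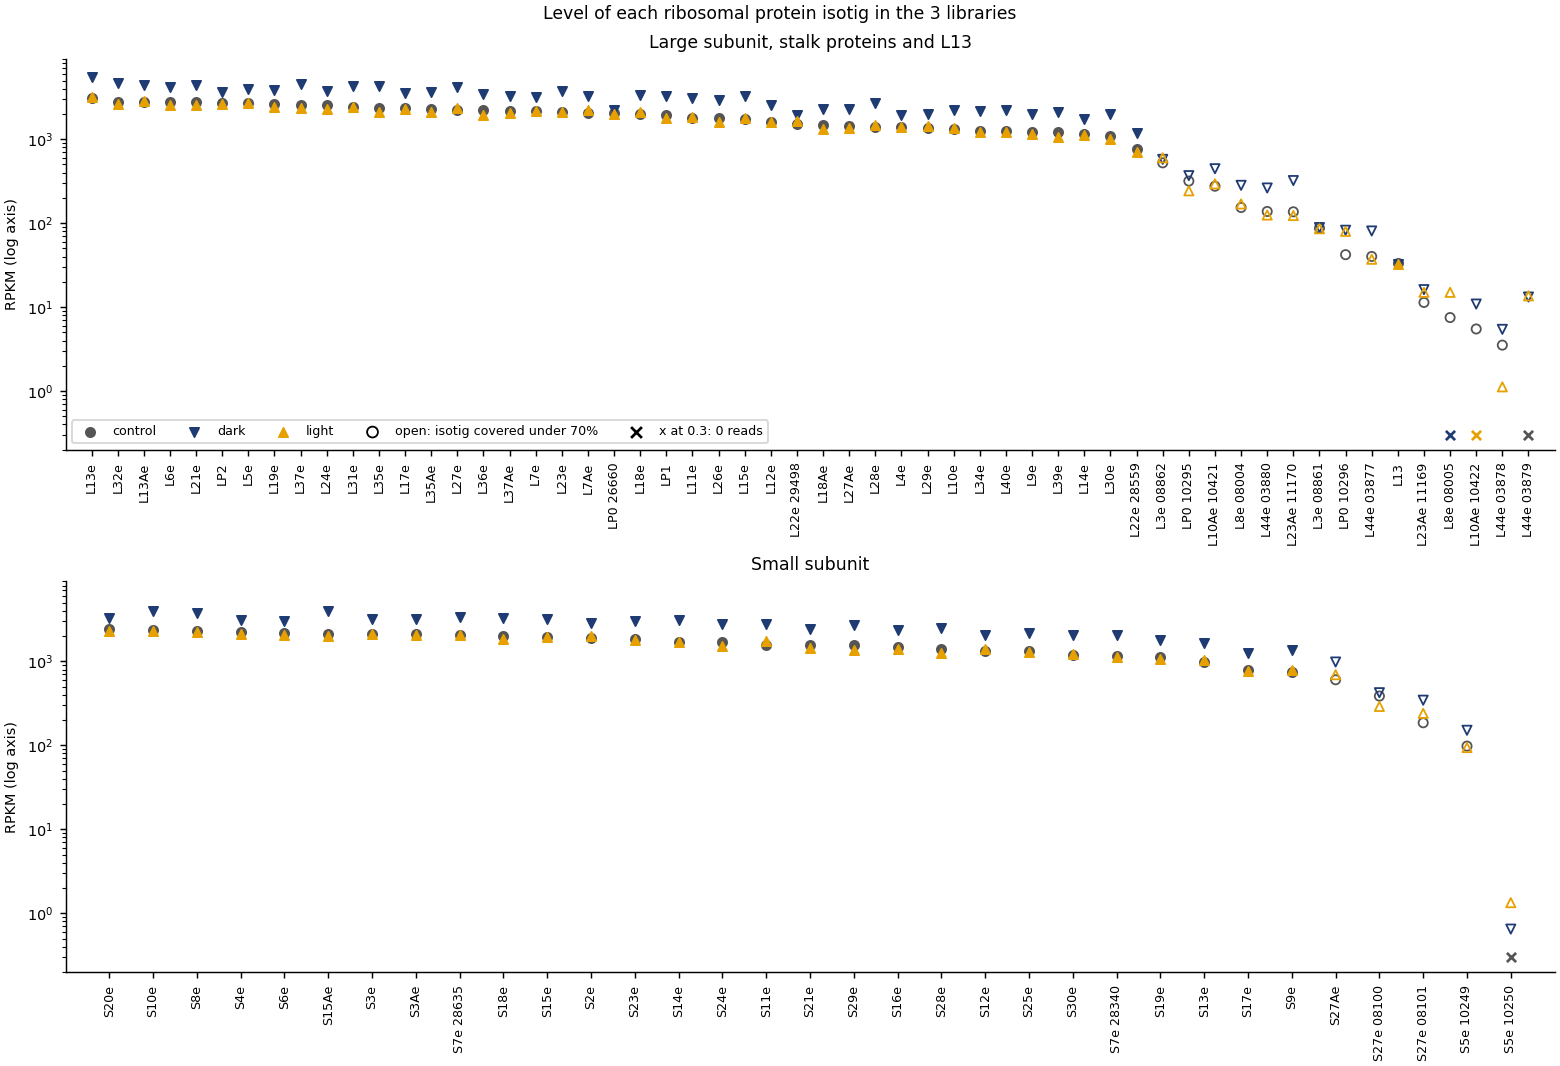
RPKM (log axis) of each of the 89 ribosomal protein isotigs in the control (circles), dark (downward triangles) and light (upward triangles) libraries, ordered by the control level, with the last 5 digits of the isotig number where a name has several isotigs. Open symbols are isotigs covered under 70%, crosses mark 0 reads, the well covered cytosolic members lie between 697 and 5506 RPKM, and the dark symbol stands above the other symbols for most of them.

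At the top of the large subunit stood L13e (isotig20778), with 3115 RPKM in control, 5506 in the dark and 3160 under strong light. L13Ae (isotig22399), a protein that in mammals also silences translation of selected messages outside the ribosome, had 2777, 4478 and 2854 RPKM. L32e (isotig24948) had 2808, 4670 and 2613, L21e (isotig24171) 2748, 4417 and 2562, and L6e (isotig19317) 2773, 4165 and 2580. For each of these 5 the dark library was highest, and control and light were close. By the mean of the 3 libraries S10e (isotig23496) was the highest of the small subunit, with 2374, 3990 and 2325 RPKM in control, dark and light. S8e (isotig20425) had 2291, 3774 and 2259, S15Ae (isotig25800) had 2148, 4016 and 1992, and S20e (isotig25821) had 2418, 3302 and 2326. Within a library, S20e was the highest in control and light and S15Ae in the dark. S4e (isotig18123) had 2268, 3144 and 2135. The dark library was again highest for each, by a smaller factor for S20e and S4e than for S15Ae. By RPKM, 57 members were among the 100 highest of all isotigs in control, 65 in the dark and 55 under strong light.

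Summed over their members, both cytosolic subunits took a larger share of reads in the dark library, while control and light were close. The 50 large subunit isotigs made up 4.68% of reads in control (95% Wilson interval 4.65 to 4.72), 7.55% in the dark (7.51 to 7.59) and 4.58% under strong light (4.55 to 4.62). The 33 small subunit isotigs made up 3.01% (2.98 to 3.04), 4.79% (4.76 to 4.82) and 2.95% (2.92 to 2.97). In the dark the large subunit was 1.61-fold higher than in control (counting interval 1.60 to 1.63) and the small subunit 1.59-fold higher (1.57 to 1.61). The proportion between the subunits hardly moved: of reads from both, the large subunit held 60.9% in control (95% Wilson interval 60.6 to 61.2), 61.2% in the dark (61.0 to 61.4) and 60.9% under strong light (60.6 to 61.2). The 5 stalk isotigs made up 0.331% (0.323 to 0.341), 0.457% (0.446 to 0.467) and 0.313% (0.305 to 0.322), a ratio of 1.38 for dark vs control (1.33 to 1.43). The L13 isotig had 25 control, 26 dark and 25 light reads, a ratio of 0.96 for dark vs control (0.53 to 1.74). At this depth no difference was detectable, and with size factors its log2 ratio turned from -0.06 to 0.26. In RNA from whole tissue, a different mix of cells and a different amount of RNA per cell cannot be told apart.

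The higher level in the dark was spread over nearly all members. Of the 88 members that passed a mean of 1 RPKM, 80 had a counting interval wholly above 1 in dark vs control (90.9%), against 7.64% of all 18225 tested isotigs, and 1 had it below 1, against 22.1%. The member left out by the limit was S5e isotig10250, with 0, 1 and 2 reads. Whether an interval leaves out 1 also depends on depth, here and in later interval counts set against all tested isotigs. A mean of at least 100 reads was reached by 81 of the 88 members but by only 2430 of the 18225 isotigs. At that depth 81 of 81 members had a log2 ratio above 0, against 912 of 2349 other isotigs. Summed over isotigs of the same name, 75 of the 76 names had an interval above 1, and L13 was the exception. The median log2 ratio, taken on RPKM plus 0.5, was 0.69 for the large subunit (quartiles 0.59 and 0.82) and 0.70 for the small subunit (0.62 and 0.78). All tested isotigs had a median of -0.31, so the medians of the subunits stood 1.0 and 1.01 above it. Median-of-ratios size factors, another scaling, moved all tested isotigs up by 0.32 at the median, and on that scale the subunits had medians of 1.01 and 1.02. The fold limit of 2 cut through the members: on the deposited scale 2 were at least 2-fold higher (background 7.09%) and 1 at least 2-fold lower (background 24%). At least 1.5-fold higher were 67 (76.1%), against 14.9% of tested isotigs, and 1.5-fold lower 1, against 38.9%. With size factors 49 were at least 2-fold higher, against 11.8% of tested isotigs, and 1 lower, against 16.6%.

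The members were also closer to each other than other well counted isotigs were. Over the 81 members with a mean of at least 100 reads, the standard deviation of the log2 ratio in dark vs control was 0.20, against 0.71 for 2349 other isotigs of that depth, whose median was -0.20. Among those other isotigs, the 162 with at least 1000 reads had a median of -0.02, and the 831 of at most 1000 bases had -0.15. Over all 2349, length and ratio were only weakly related (Pearson's r -0.09, Spearman's rho -0.11). Only 8.09% of the 2349 reached the lower quartile of the cytosolic members, a log2 ratio of 0.61, and among those of at most 1000 bases 14.3% did. The part of abundance and length in the members' ratios was not tested. Among the 76 cytosolic members with names that end in e and at least 100 reads, longer isotigs tended to have lower ratios in the dark (Pearson's r -0.49, Spearman's rho -0.26), and in the 71 of at most 1000 bases these were -0.12 and -0.14. The 66 well covered ones had -0.28 and -0.23, and the subunits apart had -0.51 and -0.14 (large, 44) and -0.44 and -0.43 (small, 32). All points come from the same pair of libraries.

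**Figure D2:**
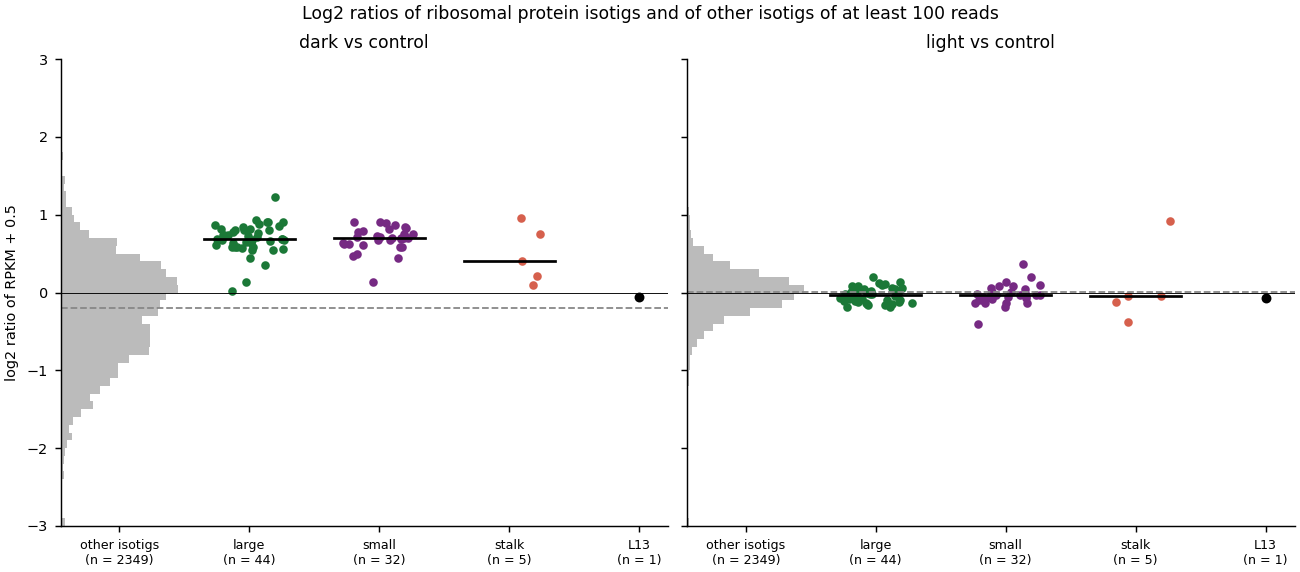
Log2 ratios of RPKM plus 0.5 (vertical axis) for dark vs control and light vs control, with a grey histogram of the 2349 other isotigs of at least 100 reads (values beyond the axis are in its end bins), points for members of at least 100 reads, short black lines at class medians, a dashed line at the median of the other isotigs, and L13 with under 100 reads. In the dark the large and small subunit medians are 0.69 and 0.70 and the median of the other isotigs is -0.20, while under strong light the large and small subunit medians are -0.03 each.

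The spread among members was wider than their counting intervals, which can be too narrow because reads are not independent molecules. In dark vs control the counting interval held the ratio of the whole class for 19 of 44 large subunit members with at least 100 reads. It lay below the class ratio for 12 and above it for 13. For the small subunit it held the class ratio for 18 of 32, lay below it for 6 and above it for 8.

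Among isotigs with at least 100 reads, the lowest ratios in dark vs control belonged to L3e, isotig26660 and isotig10295 of the stalk protein LP0, and an isotig of S27e. L3e, a core protein of the large subunit that reaches towards its peptide-bond centre, had 1188 control, 1413 dark and 1429 light reads in isotig08862, and 248, 273 and 256 in isotig08861. Neither L3e isotig was covered over more than 41.1% of its length in any library. Summed over both isotigs L3e was 1.09-fold higher in the dark (counting interval 1.01 to 1.17), under the 1.61-fold of its subunit, and 1.12-fold higher under strong light (1.04 to 1.20). Its light and dark levels were alike on the deposited scale, 1.03 (0.964 to 1.10) for light vs dark, but with size factors isotig08862 was lower in light than in dark by a log2 ratio of -0.27. Next came L22e isotig29498, with 527, 729 and 600 reads and a ratio of 1.28 (1.14 to 1.43). L4e (isotig14910), which lines the tunnel through which the new protein leaves, had 3189, 4685 and 3300 reads and a ratio of 1.36 (1.30 to 1.42). These isotigs were higher in the dark by less than their class.

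At the other end of the large subunit, L23Ae isotig11170, of a protein at the mouth of that exit tunnel, had 146 control, 372 dark and 138 light reads. It was 2.36-fold higher in the dark (1.94 to 2.87) and was covered over 20.9% of its length in control. L44e isotig03880 had 119, 245 and 113 reads, a ratio of 1.90 (1.52 to 2.39). Among well covered members the highest ratios were those of L28e (isotig24227), with 1230, 2502 and 1331 reads and 1.88-fold (1.76 to 2.02), and L27e (isotig23948), with 1968, 3980 and 2178 reads and 1.87-fold (1.77 to 1.97). L15e (isotig20149) had 2149, 4346 and 2282 reads and was also 1.87-fold higher (1.78 to 1.97). In all of these the dark library stood clear of the other libraries, which were close to each other.

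In the small subunit the lowest ratio was that of S27e isotig08100, with 487 control, 578 dark and 384 light reads, a ratio of 1.10 (0.97 to 1.24). S20e (isotig25821) had 1849, 2731 and 1863 reads and a ratio of 1.37 (1.29 to 1.45). S4e (isotig18123) had 3372, 5056 and 3325 reads and 1.39-fold (1.33 to 1.45), and S6e (isotig19083), the substrate of the ribosomal S6 kinases, had 2949, 4497 and 2946 reads and 1.41-fold (1.35 to 1.48). The highest were S9e (isotig21552), with 804, 1623 and 893 reads and 1.87-fold (1.71 to 2.03), and S15Ae (isotig25800), with 1656, 3349 and 1609 reads and 1.87-fold (1.76 to 1.98). The other isotig of S27e, isotig08101, had 234, 470 and 317 reads, a ratio of 1.86 (1.58 to 2.18), and S28e (isotig27468) had 892, 1755 and 850, a ratio of 1.82 (1.68 to 1.97). Except for S27e isotig08100, the counting interval of each of these members lay above 1 in dark vs control.

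**Figure D3:**
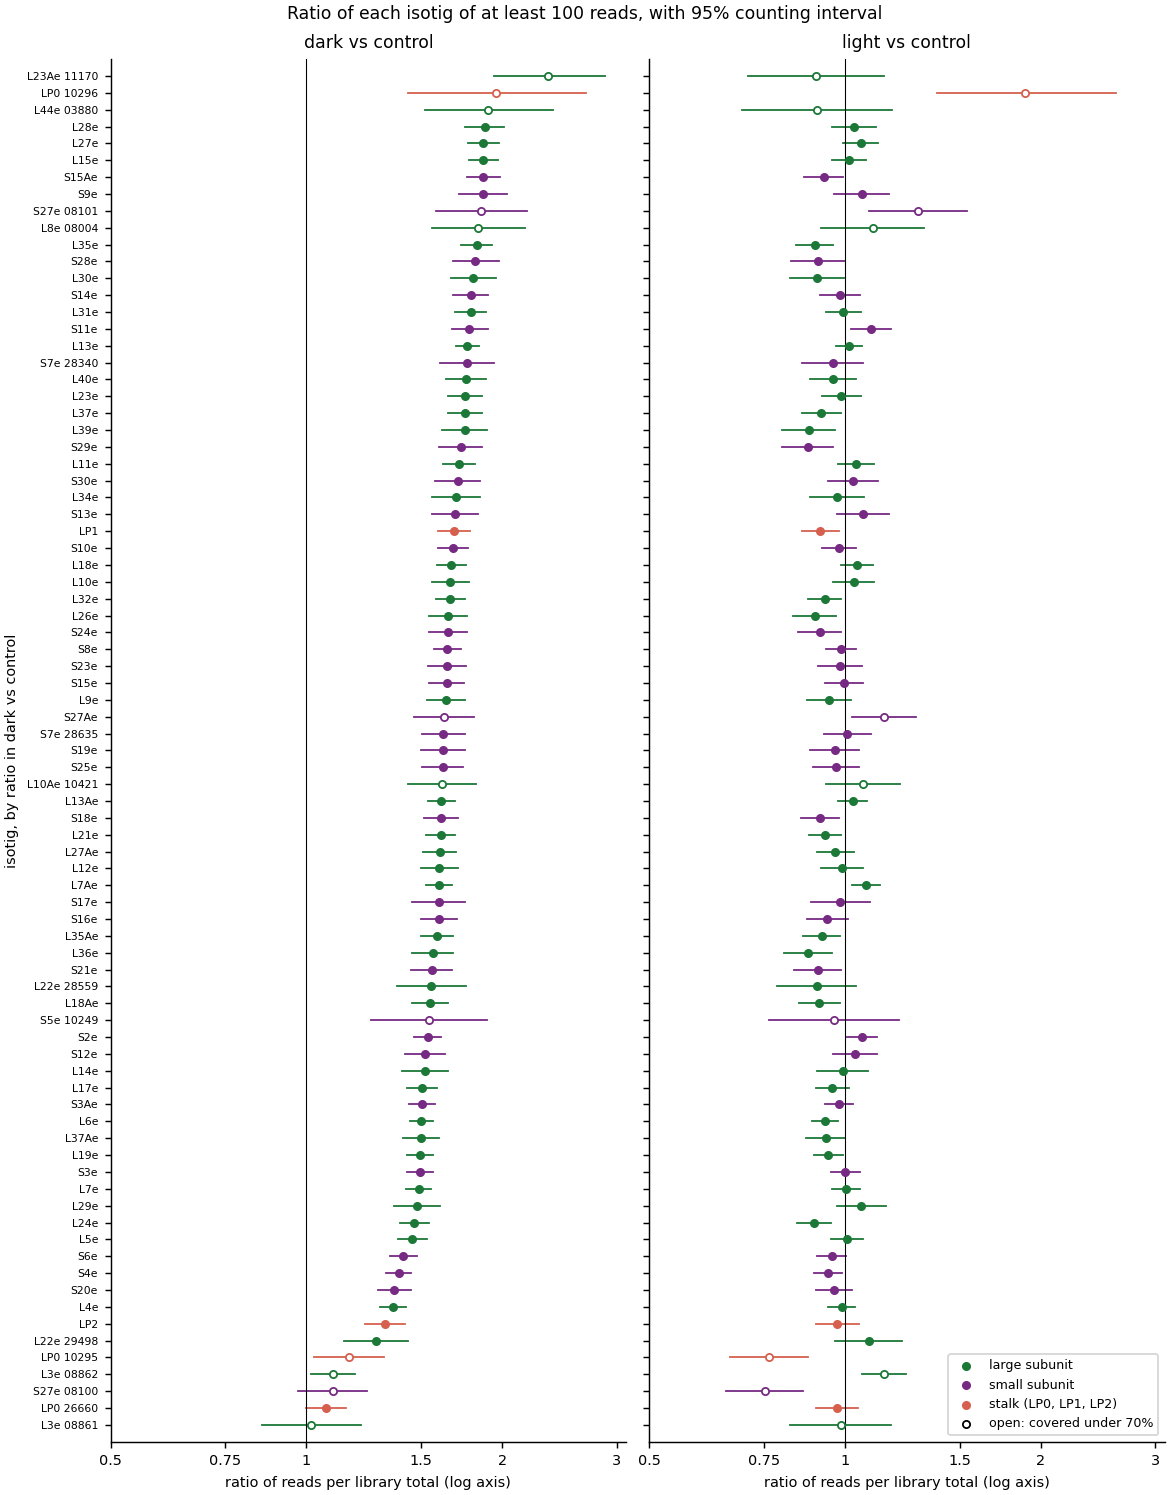
Ratio of reads per library total (log axis) for the 81 isotigs of at least 100 reads, ordered by dark vs control, with 95% counting intervals and classes by colour, and open symbols for isotigs covered under 70%. In dark vs control the points run from 1.02 (L3e isotig08861) to 2.36 (L23Ae isotig11170), and in light vs control most intervals hold 1.

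The stalk proteins, which recruit elongation factors to the ribosome, did not share a common ratio. LP1 (isotig22815) had 1896 control, 3461 dark and 1820 light reads, 1.69-fold higher in the dark (1.60 to 1.79). LP2 (isotig28945) had 1331, 1898 and 1356 reads, 1.32-fold higher (1.23 to 1.42). LP0, which anchors LP1 and LP2 to the subunit, had 1977, 2394 and 1972 reads over its 3 isotigs, 1.12-fold higher (1.05 to 1.19). Its well covered isotig26660 had 1446, 1674 and 1473 reads and a ratio of 1.07 (0.997 to 1.15). The partly covered isotig10295 had a ratio of 1.16 (1.03 to 1.31). The least counted LP0 isotig10296, also partly covered, had 62, 131 and 123 reads and a higher ratio, 1.95 (1.43 to 2.69). The interval of LP1 lay above those of LP2 and of the LP0 sum, which do not overlap each other either.

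Under strong light the members stayed near their control levels. The large and the small subunit each had 0.979 of their control share (0.969 to 0.989 and 0.967 to 0.992), with median log2 ratios of -0.03 and -0.03 against 0.00 for all tested isotigs. A counting interval above 1 was found for 8 of the 88 tested members (9.09%), against 6.16% of all tested isotigs, and one below 1 for 23 (26.1%), against 5.31%. Since most tested isotigs had fewer reads than the members, these shares are not matched for depth. Among isotigs of at least 100 reads, 54 of 81 members had a log2 ratio below 0, against 1140 of 2349 others. Among the members with an interval below 1, S27e isotig08100 was at 0.753 of control (0.657 to 0.862), LP0 isotig10295 at 0.765 (0.666 to 0.878), and L10Ae isotig10422 went from 7 reads to 0. All 3 were partly covered. The lowest well covered ones were S29e (isotig27450), with 1008 reads in control and 925 under strong light (0.876 of control, 0.800 to 0.959), L36e (isotig28708), with 1161 and 1067 reads (0.877, 0.807 to 0.954), and L39e (isotig25719), with 932 and 858 reads (0.879, 0.800 to 0.965). L24e (isotig23865) had 2294 and 2152 reads (0.896, 0.844 to 0.950). In the small subunit S21e (isotig26054) came next, with 1173 and 1116 reads (0.908, 0.836 to 0.987). On the higher side, S11e (isotig23505) had 1461 and 1678 reads, a ratio of 1.10 (1.02 to 1.18), and S27Ae (isotig01107) had 556 and 669, a ratio of 1.15 (1.02 to 1.29). All well covered members lay within log2 ratios of -0.19 and 0.13. At least 2-fold apart were 1 higher member (background 7.77%) and 2 lower ones (background 7.22%), and all 3 had at most 12 reads in any library except L10Ae isotig10422, which had 15 in the dark.

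Light vs dark uses the same 3 libraries and mirrors dark vs control. The large subunit was 1.65-fold lower in light than in dark (1.63 to 1.66), and the small subunit 1.63-fold lower (1.61 to 1.64). An interval below 1 was found for 80 of 88 tested members (90.9%), against 9.43% of tested isotigs, and 1 member, L8e isotig08005, had it above 1, against 23.8%. At least 2-fold lower were 7 members (background 8.09%), and 1 was at least 2-fold higher (background 26.2%). With size factors 57 were at least 2-fold lower (background 14%) and 1 higher (background 18.5%). On the deposited scale 64 were at least 1.5-fold lower (background 16.9%) and 1 higher (background 40.3%). By name, 74 of 76 had an interval below 1, and L3e and L13 were the exceptions. Of the 7, L35e (isotig25066) had 3813 dark and 1815 light reads, 2.03-fold lower (1.92 to 2.15), and S15Ae (isotig25800) had 3349 and 1609, 2.02-fold lower (1.90 to 2.14). L23Ae isotig11170 was 2.61-fold lower (2.14 to 3.20), L44e isotig03880 2.10-fold (1.67 to 2.65) and L44e isotig03877, with 74 and 33 reads, 2.17-fold (1.42 to 3.38). The others were L10Ae isotig10422 and L44e isotig03878, with at most 15 reads in a library.

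Of the 76 names, 10 were carried by several isotigs, 23 isotigs in all. In 7 of the 10 names the isotig numbers were consecutive and all isotigs were partly covered. How reads divide between isotigs of 1 name is independent of the scaling of a library. The division differed between libraries in S27e, a zinc-finger protein of the small subunit. Its isotig08100 held 67.5% of the name's reads in control (95% Wilson interval 64.0 to 70.9), 55.2% in the dark (52.1 to 58.1) and 54.8% under strong light (51.1 to 58.4). Dark and light were alike here and control stood apart. As a sum, S27e had 721, 1048 and 701 reads, 1.34-fold higher in the dark (1.22 to 1.48).

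In LP0 the minor isotig10296 held 3.14% of reads in control (2.45 to 4.0), 5.47% in the dark (4.63 to 6.46) and 6.24% under strong light (5.25 to 7.39), again with control apart. Its counts were 62, 131 and 123, and it was 1.89-fold higher under strong light than in control (1.38 to 2.61). The neighbouring isotig10295 had 469, 589 and 376 reads and was at 0.765 of control under strong light (0.666 to 0.878). Its share was 23.7% in control (21.9 to 25.6), 24.6% in the dark (22.9 to 26.4) and 19.1% under strong light (17.4 to 20.9), so here light stood apart. In L8e, a core protein of the large subunit, isotig08005 held 4.66% in control (2.62 to 8.15), none of 447 reads in the dark (Wilson upper limit 0.852%; 3 counts would be 0.671%), and 8.13% under strong light (5.48 to 11.9). With 11 control reads and 23 light reads against 0 in the dark, it was at least 3.97-fold lower in dark than in control and at least 7.92-fold higher in light than in dark, taking 3 counts in the library at 0. In L44e, isotig03879 had 0 reads in control and 12 each in dark and light, at least 3.70-fold and 3.82-fold higher against 3 counts, and held 3.57% (2.05 to 6.14) and 7.55% (4.37 to 12.7) of the name's reads. L44e isotig03878 had only 3, 5 and 1 reads. In L10Ae, isotig10422 had 7, 15 and 0 reads, at least 2.44-fold lower in light than in control.

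In L3e, S7e and S5e the shares moved less. The major isotig of L3e held 82.7% to 84.8% of its reads in the 3 libraries, that of S7e 60.4% to 63.5% and that of S5e 98.7% to 100%. L22e isotig29498 held 55.7% (52.5 to 58.8) in control, 50.8% (48.2 to 53.3) in the dark and 60.1% (57.0 to 63.1) under strong light, so that dark and light lay on either side of control with intervals that do not overlap each other. The minor isotig11169 of L23Ae held 8.18% (4.84 to 13.5), 5.10% (3.33 to 7.75) and 11.5% (7.42 to 17.5). L22e and S7e differ from the other divided names in that their isotigs were short (220 and 347 bases, 342 and 364 bases) and covered over at least 89.0% in every library. Whether isotigs of 1 name are alleles, splice forms, gene copies or pieces of 1 transcript was not tested.

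**Figure D4:**
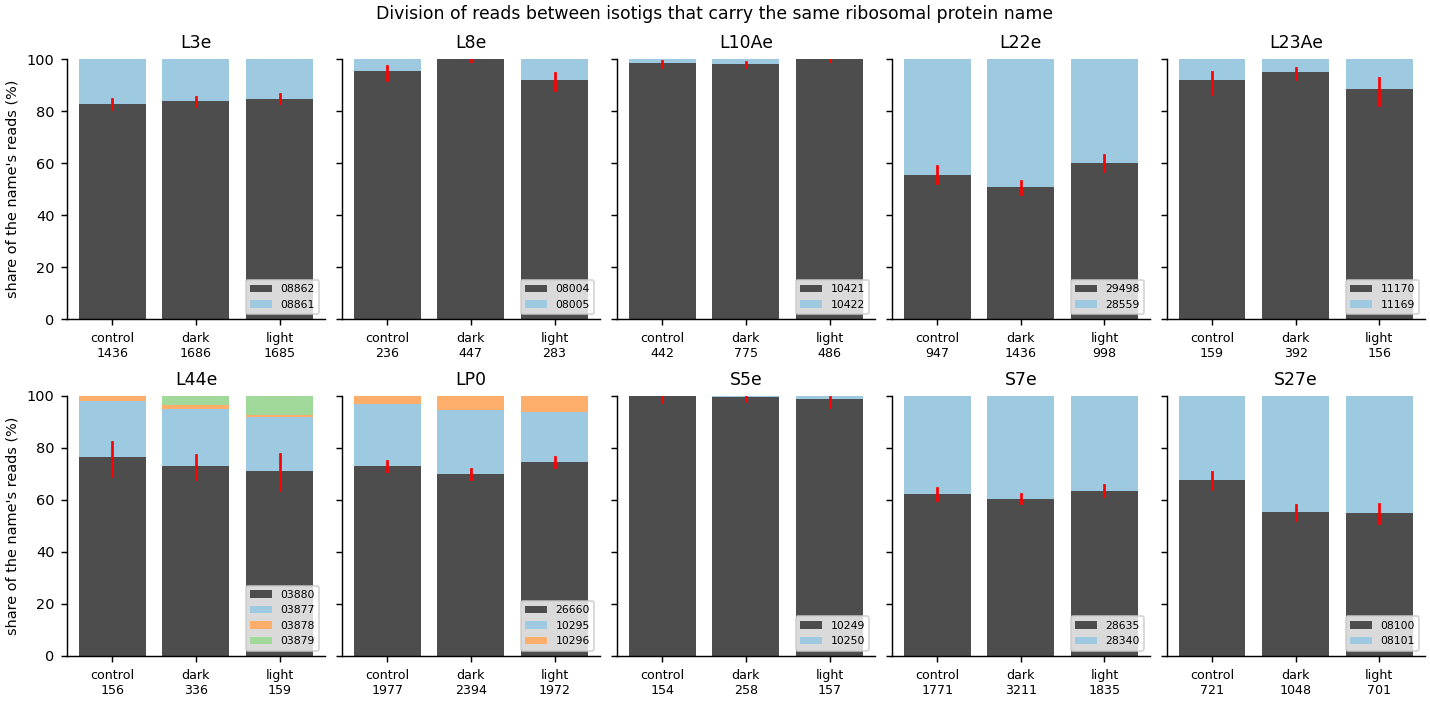
Share of reads (vertical axis, percent) held by each isotig of the 10 names with several isotigs, in the control, dark and light libraries, with the name's read count under each bar and a red line for the 95% Wilson interval of the isotig with most control reads. In S27e the share of isotig08100 is 67.5% in control and 55.2% and 54.8% in dark and light, and in S7e the shares are close in all 3 libraries.

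Genes that act with the ribosome were read from name lists that are not part of the member rule. They did not all stand as high in the dark as the members. The elongation list, 9 tested isotigs of which 1 is the kinase of elongation factor 2, had a median log2 ratio of 0.49 in dark vs control, 0.80 above all tested isotigs, with 1 at least 2-fold higher (background 7.09%) and 1 lower (background 24%). The lower one is the kinase, isotig08887, with 70, 35 and 93 reads, and with size factors it no longer reached the 2-fold limit. Elongation factor 1-alpha (isotig08601), which brings aminoacyl-tRNA to the ribosome, had 2608 control, 4092 dark and 1874 light reads, 1.45-fold higher in the dark (1.38 to 1.52). Elongation factor 2 (isotig05178), which moves the ribosome along the message, had 546, 830 and 409 reads, 1.41-fold higher (1.26 to 1.57), and elongation factor 1-beta (isotig08749) had 198, 337 and 153, 1.57-fold higher (1.32 to 1.89). Elongation factor 1-gamma (isotig04589) had 284, 304 and 235 reads, a ratio of 0.99 (0.84 to 1.17). Isotigs of the same names with fewer reads differed from these: elongation factor 1-gamma isotig04591 had 30, 99 and 31 reads, 3.05-fold higher (2.01 to 4.76), and elongation factor 2 isotig05179 had 72, 53 and 33, a ratio of 0.68 (0.47 to 0.98). In light vs control the list's median log2 ratio was -0.34. The counting interval lay below 1 for 5 of the 9 (background 5.31%) and held 1 for the other 4, elongation factor 1-delta (isotig22504), elongation factor 1-beta isotig18334, isotig04591 and the kinase. Log2 ratios were -0.54 for elongation factor 1-alpha, -0.48 for elongation factor 2 isotig05178 and -0.44 for elongation factor 1-beta isotig08749.

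The ribosome-bound scaffold protein RACK1, listed as guanine nucleotide-binding protein subunit beta-2-like 1 (isotig14767), had 4497, 6047 and 4238 reads and was 1.24-fold higher in the dark (1.20 to 1.29), less than either subunit. Ribosome biogenesis factors, which assemble the subunits in the nucleolus, had a median of -0.10 over 80 tested isotigs, 0.21 above all tested isotigs, with 5 at least 2-fold higher and 9 lower, where the background is 7.09% and 24%. Nucleolar protein 58 (isotig15038) had 161, 216 and 205 reads, a ratio of 1.24 (1.01 to 1.53), and nucleolar protein 56 (isotig14151) had 241, 189 and 259, 1.38-fold lower in the dark (1.14 to 1.68). Subunits of RNA polymerases I and III (22 tested, median -0.15, relative 0.16) had none at least 2-fold higher and 5 lower. Translation initiation factors (68 tested, median -0.23, relative 0.08, with their kinases and binding proteins in the list) had 5 higher and 12 lower, among them 2 isotigs of initiation factor 4G, isotig08683 with 163, 81 and 194 reads (2.18-fold lower, 1.66 to 2.88) and isotig17529 with 219, 114 and 287 (2.08-fold lower, 1.65 to 2.63). Initiation factor 1 was divided: isotig07175 had 80, 163 and 122 reads, 1.88-fold higher (1.43 to 2.49), and isotig07174, of under 100 reads on average, had 107, 27 and 69, 4.29-fold lower (2.79 to 6.80). The signal recognition and nascent chain list (10 tested) had a median of -0.27, relative 0.04. With size factors the medians of these lists in the dark were 0.81 for elongation, 0.17 for biogenesis, 0.14 for polymerases, 0.07 for initiation and 0.03 for signal recognition, so the sign of the last 4 depends on the scaling. The 2-fold counts were then 1 higher and 0 lower for elongation, 10 and 7 for biogenesis, 1 and 1 for polymerases, and 13 and 7 for initiation. The background on that scale is 11.8% higher and 16.6% lower.

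A high ratio in the dark was also found for the 2 transcripts named as mitochondrially encoded. Cytochrome c oxidase subunit 1 (isotig07060) had 4456, 8352 and 4443 reads, 1.73-fold higher (1.67 to 1.80), and the a subunit of the F-type ATPase (isotig12529) had 3371, 5996 and 3379 reads, a ratio of 1.64 (1.58 to 1.72). These values are close to those of the cytosolic ribosomal proteins. The L13 isotig, of the mitochondrial ribosome type, had a ratio of 0.96. Its interval (0.53 to 1.74) also holds 1 and is too wide for a comparison with them. Marker lists were compared as summed shares of reads: in control, dark and light the digestive list (48 isotigs, 23 of them neurotrypsin) held 0.394%, 0.352% and 0.378%, the body wall list (117 isotigs) 2.64%, 2.37% and 2.90%, and the coelomocyte list (167 isotigs) 2.27%, 2.38% and 2.18%. The body wall sum was mostly collagen, with 34240 of 40225 dark reads. Its other names differed: myosin heavy chain had 3524, 2368 and 4126 reads, while titin had 3009, 3080 and 3022. Isotig by isotig, the body wall list had a median log2 ratio of -0.63 in dark vs control, with 7 of 88 at least 2-fold higher and 27 lower. The digestive list had -0.48, with 1 of 37 higher and 12 lower, and the coelomocyte list -0.01, with 19 of 155 higher and 23 lower, against -0.31, 7.09% and 24% for all tested isotigs. With size factors the medians were -0.34 (body wall), -0.23 (digestive) and 0.30 (coelomocyte), so the sign of the last depends on the scaling. The counts were then 7 higher and 22 lower, 1 and 8, and 37 and 16, against 11.8% and 16.6%. The part of cell mix in the members' ratios was not tested.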

How the data were processed

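Per the file headers, the authors deposited for each library a count of uniquely assigned reads per isotig, its length, the percent of its bases with reads, and RPKM. CASAVA 1.5 is named in the submitters' processing notes; the sources used here do not give the assembler, aligner or filters. Isotigs absent from a library's table were set to 0 reads. Log2 ratios used RPKM plus 0.5, which understates low isotigs, over the 18225 isotigs that averaged at least 1 RPKM. Intervals of ratios (Clopper-Pearson) and shares (Wilson) are 95% intervals of counting error (scipy 1.17.1), and the ratio steps were tested on simulated data. TMM factors came from edgeR 4.0.16. Members and lists were chosen with earlier results of these data known, and the 70% coverage line after seeing the data. Per class, named members are the 5 highest and 3 lowest in level, the 4 highest and lowest ratios in dark and 3 in light (at least 100 reads), those at least 2-fold apart, those with 0 reads and divided names; per other list, the 3 highest and lowest in dark. Text names a selection of these. Alternatives were other scalings, pseudocounts, filters, fold limits and names summed.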

Additional observations from a re-analysis of the deposited data

How the results depend on the processing

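No paired analysis was possible because each group has 1 library. The class sums and medians of both subunits kept their sign under every alternative. Under the 4 other scalings signs turned for L13 (isotig26163) in dark vs control, L3e isotig08862 and L44e isotig03879 in light vs dark, and, with size factors, 4 members in light vs control (L5e, L7e, S3e and S7e isotig28635); their deposited log2 ratios were at most 0.062 from 0. Values are given as dark vs control and then light vs dark, for the large subunit first. Counts take higher and lower members together. Shares of all tested isotigs at 2-fold were given above for the deposited scale and size factors only. Most other counts in this section therefore have no background beside them. That background moves with the scaling too: in dark vs control 7.09% were at least 2-fold higher as deposited and 11.8% with size factors. Counts without it show only where the fold limit falls among the members. With size factors the summed log2 ratios were 1.01 and -1.05 (large) and 0.99 and -1.03 (small), the medians 1.01 and -1.08, and 1.02 and -1.06, and the members at least 2-fold apart 28 and 35, and 20 and 22; light vs control was -0.045 for the large sum. With TMM factors the sums were 1.0 and -1.05, and 0.98 and -1.03, the medians 1.0 and -1.07, and 1.01 and -1.05, the counts 25 and 35, and 19 and 21, and light vs control -0.051 for both sums. On totals without the cytosolic members the sums were 0.76 and -0.80, and 0.74 and -0.78, the large median 0.76, the large count 5 in dark vs control and the small count 3 in light vs dark. On totals without the 20 most abundant isotigs the sums were 0.77 and -0.81, and 0.75 and -0.79, the large median 0.77 (dark vs control), the small median -0.81 (light vs dark), the large count 6 and the small count 3; shares of control, dark and light were 5.77%, 9.86% and 5.63% (large) and 3.71%, 6.26% and 3.62% (small). Leaving out the weak hit gave 7.51% for the large subunit in the dark.

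Counts at the fold limit rest on few isotigs. At 1.5-fold they were 39 and 40 (large) and 27 and 23 (small); at 4-fold, 2 and 0 in light vs dark. For the large subunit, summing isotigs by name, or asking for at least 100 reads, left 1 in dark vs control, 0 in light vs control and 3 in light vs dark. Leaving out partly covered members, chosen after seeing the data, left 0, 0 and 1. With no filter the small subunit had 1 in dark vs control and 1 in light vs control. Pseudocounts of 0.1 and 1 RPKM and a filter of 5 RPKM kept every count at 2-fold within 1.5 times. Taking 3 counts for 0 reads left the class medians as they were. Of the members, 8 had under 100 reads on average, where ratios are imprecise.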
